A study of Solanum lycopersicum with 84 samples.

Results

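The genes described here are the 150 tomato genes whose transcript levels differed most between embryo libraries of the same fruit stage late in seed development. Seeds of the cultivar Moneymaker (Solanum lycopersicum) were followed through fruit development, and RNA was sequenced from 84 libraries, 3 replicates in each of 28 groups defined by tissue and age. All plants were untreated and of the same cultivar, and the groups are defined by tissue and age. Plants were grown in 2 seasons, and the labels do not give the season of a sample, so its part was not tested. Dissected embryos and endosperms were sampled at 35, 42 and 49 DAF (days after flowering) and at 8 fruit stages, which are mature green (MG, 56 DAF), breaker (B, 63 DAF), pale orange (PO, 67 DAF), orange (O, 70 DAF), dark orange (DO, 72 DAF), red (R, 76 DAF), and red fruit 7 days (R7, 83 DAF) and 14 days later (R14, 90 DAF). Seed coats were dissected at 35, 42 and 49 DAF, and whole seeds were taken at 15, 21 and 28 DAF. Embryo, endosperm and seed coat were separated by hand from pooled seeds, and the labels do not say whether embryos and endosperms with the same replicate number came from the same seeds. In bulk tissue, fewer cells of a type and less RNA per cell cannot be told apart.

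For the choice, levels were expressed as log2(CPM + 1), where CPM is the estimated count of a gene scaled to a common library total. The standard deviation (SD) of the 3 embryo libraries was taken at DO, R, R7 and R14 and averaged over these 4 stages. Of 33976 genes, 12194 averaged 5 CPM or more over these 12 libraries, and the 150 with the highest mean SD were kept. Their mean SD lay between 1.62 and 3.58 on the log2 scale with a median of 1.93, whereas the median of the 12194 genes was 0.213 and 444 genes (3.64%) exceeded 1. The last genes inside were Solyc05g050130.4.1 (1.63), Solyc07g054760.1.1 (1.62) and Solyc05g005020.4.1 (1.62). The first outside were Solyc08g006890.3.1 (1.62), Solyc10g081510.2.1 (1.62) and Solyc06g005560.4.1 (1.61), so the mean SD has no gap at the boundary. The values of these 12 libraries chose the genes and are given as a description, without a test. The other 72 libraries were not used in the choice.

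Late in maturation a seed embryo has finished storing oil and protein, and its RNA is rich in transcripts for late embryogenesis abundant (LEA) proteins and small heat shock proteins, which protect cells in the dry state, and for proteins that coat oil bodies. Transcripts of the growing embryo, for cell walls, membranes, transport and metabolism, have mostly been replaced by that time. The seed coat comes from the mother plant and dies at maturity, and the endosperm surrounds the embryo and mobilises reserves at germination. The files pair few genes with a description, and 1 of the 150 genes has one.

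The 84 libraries held between 16908779 and 22734330 counts, and the 12 late embryo libraries between 20415576 and 21531973, so 3 counts, taken as the limit of detection, correspond to 0.139 to 0.147 CPM in these 12. Both embryo markers, SlABI4-1 and SlABI4-2, which encode a transcription factor of the abscisic acid response, were present in each late embryo library, with 22.7 to 38.7 CPM and 73.2 to 109 CPM, against at most 3.70 and 5.19 CPM in the late endosperm libraries. No pair of replicates held the same counts or agreed within sampling noise. R replicate 1, R7 replicate 3 and R14 replicate 1 stood apart from the other embryo libraries of their stages, and at DO replicates 2 and 3 differed from replicate 1 and most from each other. Without DO replicate 2, R7 replicate 3 and R14 replicate 1, which had the highest sums of the 150 genes, a choice made after seeing the data, the rule returned 79 of the 150 genes, while leaving out any single library of the 12 returned 125 to 146.

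In the late embryo the levels of the 150 genes varied together from library to library. In a principal component analysis of the 12 libraries, with the mean of each stage subtracted, the first component held 88.8% of the variance of these genes within stages and the second 5.28%, and 149 genes had the same sign on the first component. At DO, the 150 genes summed to 4447, 11171 and 198 CPM in replicates 1 to 3, at R to 504, 4294 and 3475 CPM, at R7 to 235, 371 and 9734 CPM, and at R14 to 13038, 3114 and 1234 CPM. Each stage thus had libraries with high and with low sums, although the lowest of R14 lay above the lowest of the other stages, and neither the order of stages nor the replicate number was followed. In DO replicate 3, 36 of the 150 genes reached 1 CPM and 3 reached 10 CPM, and in R14 replicate 1 these counts were 149 and 144. The summed transcripts made up 0.0198% to 1.30% of all counts of a library.

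**Figure D1:**
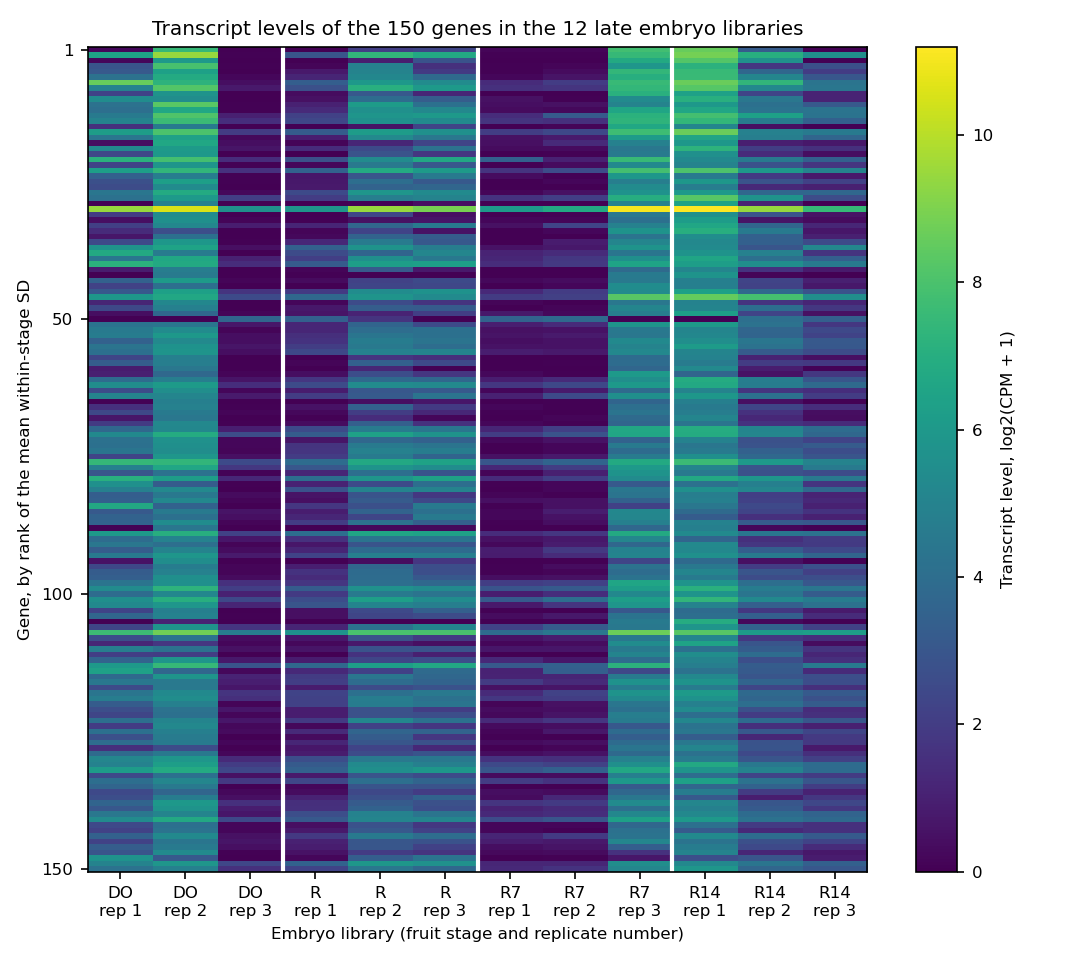
Transcript levels of the 150 genes (rows) in the 12 late embryo libraries (columns, 3 replicates each at DO, R, R7 and R14), as log2(CPM + 1) on the colour scale. DO replicate 2, R7 replicate 3 and R14 replicate 1 are high for nearly all genes, and DO replicate 3 and R7 replicates 1 and 2 are low.

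The highest of the 12 values was in R14 replicate 1 for 64 genes, in DO replicate 2 for 59 and in R7 replicate 3 for 16, which together make 139 of 150. Within DO, replicate 2 was the highest for 134 of 147 genes with different values, against 43.4% of all genes of at least 5 CPM. Replicate 3 was the lowest for 145. Within R, replicate 2 was the highest for 101 of 148 genes (38.1% of all genes) and replicate 3 for 45, so that 2 libraries of this stage were high and 1 was low. Within R7, replicate 3 was the highest for 135 of 137 genes (51.3% of all genes), and within R14 replicate 1 was the highest for 147 of 150 (48.1% of all genes). These counts follow from the choice of the genes and are printed only to show which libraries carried the variation. The median within-stage SD of the 150 genes was 2.44 at DO, 1.32 at R, 2.36 at R7 and 1.57 at R14, so the 3 libraries lay closest together at R.

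Among the genes with the largest SD, some were below the limit of detection in 1 library and over 100 CPM in another of the same stage. Solyc08g014000.3.1, with the highest mean SD, had 0.142, 179 and 0 CPM at DO, 0, 3.23 and 4.09 CPM at R, 0.0954, 0.0957 and 224 CPM at R7 and 382, 8.15 and 0 CPM at R14, and 6 of its 12 values were at 3 counts or fewer. Solyc07g042995.1.1 had 87.5, 708 and 0.0484 CPM at DO, 6.76, 163 and 106 CPM at R, 0.0477, 0.0478 and 180 CPM at R7 and 465, 127 and 46.4 CPM at R14. Both genes were high in the same libraries, but the second was also found at over 40 CPM in DO replicate 1, R replicates 2 and 3 and the remaining R14 libraries, where the first was low or absent. Solyc04g080620.3.1 had 6.67, 246 and 0.0484 CPM at DO and 144, 2.43 and 5.57 CPM at R14. In all, 78 of the 150 genes had at least 1 late embryo library at 3 counts or fewer.

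Other genes of the group were abundant and present in each library, and differed in amount. Solyc10g075050.2.1, which the study describes as a member of the lipid-transfer protein family, small secreted proteins that bind lipids, had the highest mean of the 150 genes, 751 CPM. It had 707, 1524 and 47.1 CPM at DO, 55.9, 714 and 471 CPM at R, 64.4, 108 and 2113 CPM at R7 and 2343, 684 and 177 CPM at R14. Its values thus spanned a wide range within each stage but never fell to the limit of detection. Solyc12g006680.2.1 (mean 176 CPM) had 204, 429 and 25.8 CPM at DO and 14.4, 20.5 and 404 CPM at R7, and Solyc08g083240.3.1 (mean 103 CPM) 60.2, 102 and 4.65 CPM at DO and 2.82, 3.40 and 308 CPM at R7. Over the 150 genes the mean of the 12 libraries lay between 5.09 and 751 CPM with a median of 14.3 CPM, so most of the group was of moderate or low level.

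A small set of the 150 genes was found almost only in late embryo libraries. Of the 150, 6 had a mean under 1 CPM in each of the 24 groups outside the late embryo, which was the case for 0.0574% of the 12194 genes (7 genes). Solyc02g077020.3.1 had 123 CPM in R14 replicate 1, 23.5 CPM in R7 replicate 3 and 1.07 CPM in DO replicate 2, was at 0.191 CPM or less in the other 9 late libraries and had 0 counts in all 72 other libraries. Solyc06g073580.4.1 had 64.9 CPM in DO replicate 2, 110 CPM in R7 replicate 3 and 296 CPM in R14 replicate 1, with 50.1 CPM in R14 replicate 2, and no library outside the late embryo exceeded 0.0963 CPM. Solyc10g081550.2.1, annotated by the study to the biosynthesis of sideretin, a coumarin-type phenolic known from Arabidopsis, followed the same libraries with 16.6, 18.8 and 43.8 CPM in these 3, and was also found at R in replicates 2 and 3 with 10.7 and 8.50 CPM. Solyc09g092700.3.1 had 28.9, 30.3 and 86.3 CPM in the same 3 libraries, and Solyc07g062230.4.1 and Solyc12g089380.2.1 reached 37.9 and 27.8 CPM in R14 replicate 1. The highest late embryo library exceeded all 72 other libraries for 56 of the 150 genes, against 27.8% of the 12194 genes. The genes were chosen for a wide spread in the late embryo libraries, which favours high single values there. This count and that of the 6 genes are therefore a description only.

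A few genes had a pattern of their own. DO replicate 1, of intermediate level for the group, held the highest value of 8 genes, among them Solyc12g040860.2.1 (48.3 CPM), Solyc05g050130.4.1 (51.7 CPM) and Solyc10g075100.2.1 (107 CPM). For Solyc10g075100.2.1 the other libraries were much lower, with 10.5 CPM in DO replicate 2, 3.53 CPM in R7 replicate 3 and 20.7 CPM in R14 replicate 1, and its mean in the seed coat at 49 DAF was 16430 ± 2312 CPM (SD, n = 3 libraries). The only gene of opposite sign was Solyc02g064620.2.1. It had 0, 0.000238 and 11.6 CPM at DO, 9.87, 2.16 and 0 CPM at R, 10.5, 13.3 and 0 CPM at R7 and 0, 16.1 and 9.49 CPM at R14, and so was at or near 0 where the other genes were highest. In the endosperm this gene was present throughout, with 69.6, 58.2 and 61.1 CPM at R7 and 60.1, 44.4 and 18.3 CPM at R14, and it was at 0 in single whole seed and embryo libraries of other stages too, as with 0, 6.56 and 10.2 CPM in the embryo at 35 DAF. The genes that DO replicate 1 or opposite sign single out were chosen for mention after their values were seen.

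The 150 genes lie on all 12 chromosomes according to their identifiers, and 18 of them have another of the 150 within 50 identifier units, such as Solyc12g005020.2.1, Solyc12g005030.3.1 and Solyc12g005040.2.1, or Solyc10g075050.2.1, Solyc10g075100.2.1 and Solyc10g075110.2.1. This number was not compared with that of other sets of genes, so it does not show that the genes lie together. How reads were divided between near-identical neighbours is uncertain. None of the 150 was found in 25 lists of genes picked by words in the study's descriptions (LEA, heat shock, oil body, storage, cell wall and others), but only 1818 of all genes have a description in the tables used here, so this says little about function. Annotation terms of the study cover single genes of the group only. Beside Solyc10g081550.2.1, they place Solyc07g017780.4.1 in the biosynthesis of proanthocyanidins (tannins of the seed coat), Solyc09g061840.4.1 in the metabolism of long-chain fatty acids and Solyc04g074700.4.1 in the response to blue light, and these genes are named here although the rule for named genes did not list them all. Solyc07g017780.4.1 had 80.0, 164 and 1.98 CPM at DO, 10.4, 113 and 68.2 CPM at R, 2.20, 5.07 and 229 CPM at R7 and 270, 63.3 and 31.4 CPM at R14, the pattern of the group.

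Outside the late embryo, most of the 150 genes had their highest mean early in seed development or in another tissue. The highest of the other 24 group means was in whole seeds for 68 genes (31.5% of the 12194 genes), most often at 15 DAF (53 genes). It was in the embryo at 35 to 49 DAF for 20 genes, 13.3% against 4.63% of all genes, and in the embryo from MG to O for 4 genes (23.4% of all genes). Seed coats held the highest mean of 29 genes (16.8% of all genes) and endosperms that of 23 (23.6% of all genes). With a gene counted as preferential for embryo, endosperm or seed coat if its best stage mean there was over 1 CPM and 10 times the best of either other tissue, computed without the 12 late embryo libraries, 26 of the 150 were among 401 embryo-preferential genes, 11 among 1656 of the seed coat and 8 among 1252 of the endosperm. These are 17.3%, 7.33% and 5.33% of the 150, against 1.25%, 0.722% and 0.443% of the 12194 genes.

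In the embryo the level of the group was high at 35 DAF, lower at 42 DAF and low at 49 DAF and MG, and from B on it was higher in single libraries, as given further on. The median of the 150 genes, as log2(CPM + 1), was 3.42, 4.01 and 3.81 in the libraries of 35 DAF, 1.46, 1.86 and 2.30 at 42 DAF, 0.83, 0.85 and 0.52 at 49 DAF and 1.01, 0.76 and 0.56 at MG. Whole seeds at 15 to 28 DAF lay higher, between 4.49 and 4.95. At 35 DAF, 85 of the 150 genes had a mean of at least 10 CPM, against 17 at 49 DAF, 15 at MG and 12 at O. In the late embryo this number was 119 at DO, 67 at R, 80 at R7 and 117 at R14, through the high libraries. These medians and counts use library totals and were not compared with those of all genes. The 10 most abundant genes took 32.4% to 57.7% of the counts in the embryo libraries of 35 to 49 DAF. From MG to O they took 11.99% to 19.8%. The medians and counts alone thus do not separate a change in the 150 genes from this change in composition.

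**Figure D2:**
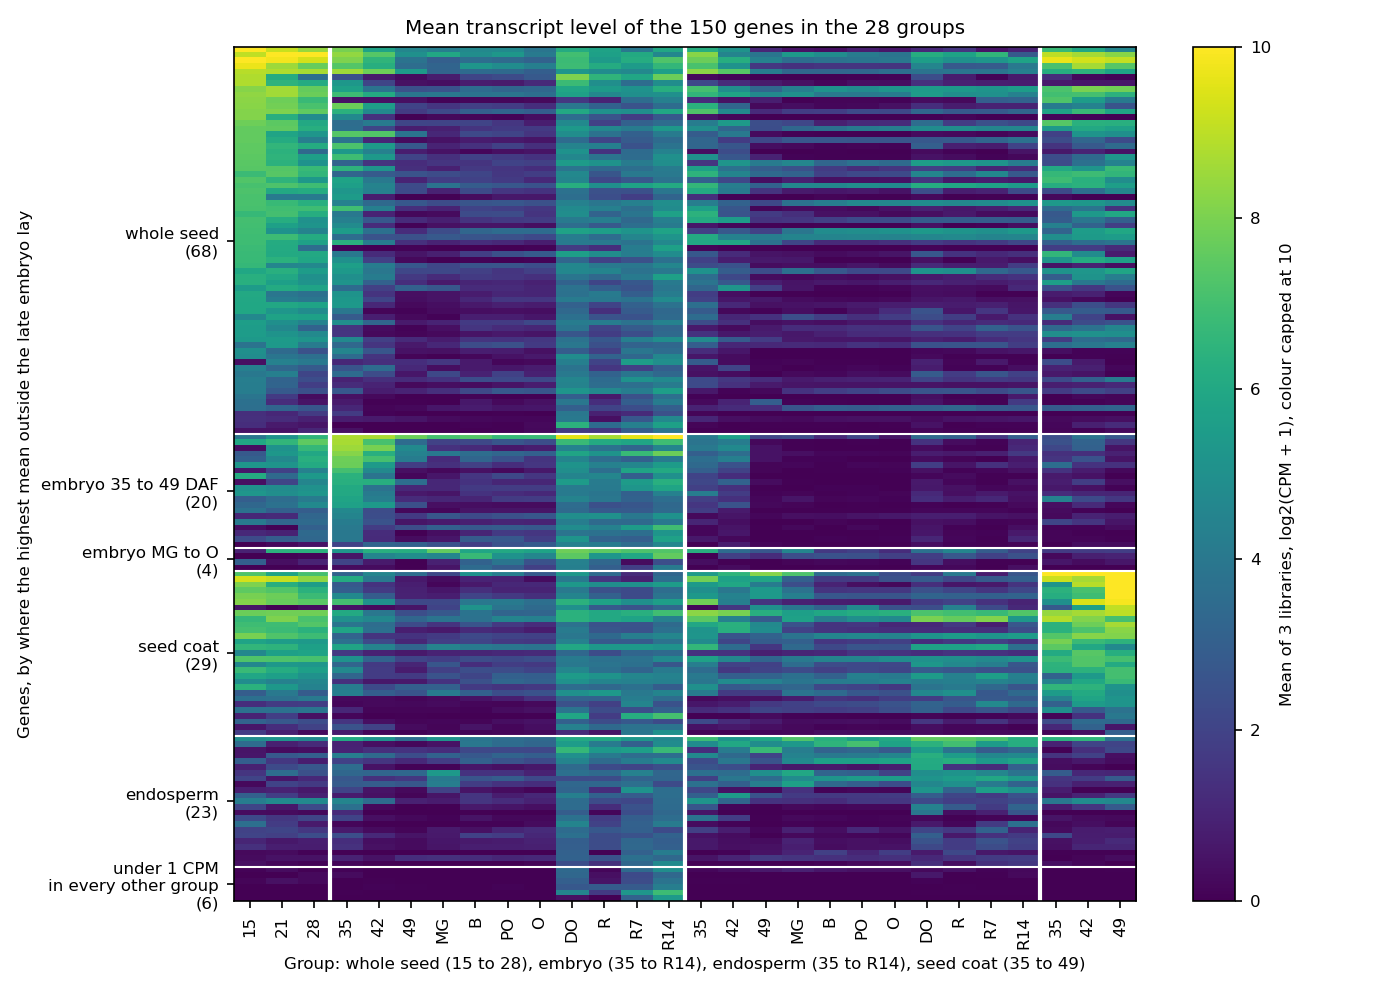
Mean of 3 libraries of each of the 150 genes (rows), as log2(CPM + 1) on a colour scale capped at 10, in the 28 groups (columns: whole seed, embryo, endosperm and seed coat by stage), with the genes arranged by where their highest mean outside the late embryo lay. Most of the 68 genes highest in whole seeds and the 20 highest in the embryo at 35 to 49 DAF are low in the embryo from MG to O, with exceptions such as Solyc10g075050.2.1 (108 CPM at O), and all classes have higher means at DO, R7 and R14.

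These steps were tested with edgeR's quasi-likelihood test on the 72 libraries that the rule did not use, and p was adjusted over 24543 genes by the Benjamini-Hochberg (BH) method. A gene was called changed at an adjusted p under 0.05 together with an absolute log2 fold change over 1. The standard error (SE) of a fold change is that of the fit. Of the 150, 145 passed the filter on low counts, which looked at the 72 libraries only, and the 5 left out (Solyc10g081550.2.1, Solyc07g062230.4.1, Solyc02g077020.3.1, Solyc06g073580.4.1 and Solyc12g089380.2.1) are among the 6 genes with a mean under 1 CPM in each group outside the late embryo. Fold changes are relative to the scaling by TMM (trimmed mean of M-values), which sets the typical gene to no change.

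From 35 to 42 DAF, 57 of the 145 genes (39.3%) fell and 3 rose, against 12.5% and 8.5% of all genes tested. From 42 to 49 DAF, 65 (44.8%) fell and 1 rose, against 13.8% and 8.23% of all genes. At least 1 of these steps was a fall for 87 genes, against 21.6% of all genes, and both were for 35, against 4.71%. The median log2 fold change of the 145 genes was -1.38 for the first step and -1.92 for the second, and the median of all genes was 0 for both. With library totals in place of TMM, the median of all genes moved by -0.43 for the first step, and 78 of the genes fell and 2 rose, against 20.6% and 4.5% of all genes. The number of falls in the first step was 30 without replicate 2 of each group, against 8.24% of all genes. With all 84 libraries in the fit it was 26 of 150 (17.3%), against 12% of all genes. That fit includes the 12 libraries whose spread chose the genes, so this count is a description only.

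Solyc02g067870.3.1 shows this course. It had 106, 136 and 139 CPM in the embryo at 35 DAF, 2.42, 17.5 and 56.0 CPM at 42 DAF and 0.319, 0.413 and 0.229 CPM at 49 DAF. The second step had a log2 fold change of -6.43 (SE 0.84, edgeR, BH-adjusted p = 9.99e-09), with no overlap between the stages. Solyc12g006470.2.1 had 353, 414 and 459 CPM at 35 DAF, 41.7, 144 and 220 CPM at 42 DAF and 22.1, 5.10 and 3.34 CPM at 49 DAF. The largest fall of the first step by the fitted fold change was that of Solyc03g123630.4.1, with 0.0897, 0.0446 and 0.133 CPM at 42 DAF or at most 3 counts per library, against 5.85, 19.6 and 18.4 CPM at 35 DAF. Solyc02g071700.3.1 had 0 counts in all libraries at 49 DAF, at least 10.4-fold lower than at 42 DAF, where it had 0.134, 2.27 and 1.87 CPM.

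The rises of this period were few. Solyc10g075110.2.1 had 42.2, 14.4 and 10.5 CPM at 42 DAF, against 0.484, 0.805 and 0.180 CPM at 35 DAF (log2 fold change 5.97, SE 1.19, edgeR, BH-adjusted p = 5.26e-05). Its identifier is close to that of the lipid-transfer protein gene Solyc10g075050.2.1, and the 2 genes differed in course, since Solyc10g075050.2.1 had 386, 457 and 462 CPM at 35 DAF and 365, 140 and 132 CPM at 49 DAF. The other rises from 35 to 42 DAF were those of Solyc01g006580.4.1 (8.64 ± 2.07 against 2.91 ± 0.872 CPM, SD, n = 3) and Solyc09g007940.3.1 (10.5 ± 1.44 against 5.02 ± 0.744 CPM, SD, n = 3). From 42 to 49 DAF only Solyc04g005800.3.1 rose, with 0.911, 1.56 and 2.01 CPM at 49 DAF, against 0.269, 0.446 and 0.489 CPM at 42 DAF.

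From 49 DAF to MG, 12 of the 145 genes fell and 1 rose, against 4.42% and 3.41% of all genes. The split depended on the scaling, since library totals moved the median of all genes by 0.53 and gave 8 falls and 9 rises, against 1.79% and 14.5% of all genes. Solyc12g011010.2.1 had 2.52, 1.68 and 0.859 CPM at MG, against 54.5, 16.0 and 7.74 CPM at 49 DAF (log2 fold change -4.55, SE 0.77, edgeR, BH-adjusted p = 1.16e-05). Solyc09g061840.4.1, of long-chain fatty acid metabolism, was the only rise, with 3.12, 2.61 and 2.39 CPM at MG, against 0.775, 0.643 and 0.641 CPM at 49 DAF. Its log2 fold change was 1.40 (SE 0.49, edgeR, BH-adjusted p = 0.0313, range over the alternatives 0.00131 to 0.268). The level of 35 DAF, 16.9, 26.2 and 32.0 CPM for this gene, was not reached.

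From MG to O, 11 of the 145 genes rose and 5 fell, against 2.36% and 4.78% of all genes, and both counts rested on single libraries. Without O replicate 2, in which most of these genes were highest, 2 rose and 13 fell, against 1.98% and 4.35% of all genes. Without replicate 1 of each group 22 rose and 0 fell, against 1.88% and 3.01%. Of the genes called lower, Solyc10g050990.2.1 had 0.0542, 2.70 and 0 CPM at O, against 119, 0.933 and 0.620 CPM at MG, so that its log2 fold change of -5.75 came from MG replicate 1, and without replicate 1 of each group it was 0.64. Solyc02g071700.3.1, called higher, did not overlap between the stages, with 2.34, 2.62 and 1.01 CPM at O, against 0.0918, 0.420 and 0.382 CPM at MG (log2 fold change 2.56, SE 0.83, edgeR, BH-adjusted p = 0.0179, range over the alternatives 0.00852 to 0.193). Solyc04g080620.3.1 had 0, 0.437 and 0.144 CPM at O and 0 counts at MG.

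Differences between embryo libraries of the same stage were already present before DO, at lower levels. The median within-stage SD of the 150 genes in the embryo was 0.26 at 35 DAF, 0.46 at 42 DAF, 0.23 at 49 DAF and 0.28 at MG, and then 0.72 at B, 0.81 at PO and 0.69 at O, whereas that of all 12194 genes lay between 0.089 and 0.203 over these stages. The median of the 150 genes was 2.28, 0.99 and 0.36 at B, 2.40, 0.56 and 0.37 at PO and 0.36, 2.03 and 0.44 at O on the log2 scale, so each of these stages had 1 high library. Replicate 1 was the highest for 125 of 132 genes at B (42.7% of all genes) and for 122 of 126 at PO (37.2% of all genes), and replicate 2 for 126 of 130 at O (46.8% of all genes). The mean SD over MG to O exceeded 1 for 43 of the 150 genes, 28.7% of them, against 0.415% of the 11574 genes that averaged 5 CPM or more there, of which 48 exceeded 1. Only 31 of the 150 had such a mean, and 19 of those exceeded 1. The count was 76 with log2(CPM + 0.25), 10 with log2(CPM + 5) and 7 without replicate 1 of each group. The share of all genes was not computed under these settings, so these counts are a description only. The libraries of MG to O played no part in the choice of the genes.

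Solyc06g059740.4.1 varied most at these stages, with a mean SD of 2.42. It had 170, 14.5 and 4.49 CPM at MG, 69.0, 14.9 and 3.92 CPM at B, 108, 5.52 and 0.974 CPM at PO and 1.62, 43.5 and 2.45 CPM at O. Its highest level was that of whole seeds at 21 DAF, 1720 ± 61.6 CPM (SD, n = 3). Solyc10g075110.2.1 had 260, 53.3 and 3.82 CPM at B, 89.9, 6.02 and 3.95 CPM at PO and 3.10, 60.2 and 5.48 CPM at O. Solyc07g042995.1.1, second by mean SD in the late embryo, had 9.06, 0.622 and 0 CPM at B, 11.8, 0.0498 and 0 CPM at PO and 0.0477, 17.8 and 0.0480 CPM at O, and 465, 574 and 311 CPM in whole seeds at 15 DAF. Replicate 1 was thus the high library of all 3 genes at B and PO, and replicate 2 at O.

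The 150 genes also varied in the endosperm, with smaller SDs and at lower levels. Their median was 0.363 to 4.03 CPM in the late endosperm libraries, against 0.194 to 37.9 CPM in the late embryo. At levels near or under 1 CPM the pseudocount of 1 makes the SD smaller, so the extent of variation cannot be compared between the tissues. At the late stages the median within-stage SD of the 150 genes in the endosperm was 0.61 at DO, 0.34 at R, 0.33 at R7 and 0.48 at R14, against 0.12 to 0.15 for all genes, and from B to O it was 0.13 to 0.14. The 150 genes summed to 1305, 4108 and 1013 CPM in the endosperm at DO, 856, 1410 and 3056 CPM at R, 1129, 1073 and 2823 CPM at R7 and 2148, 768 and 909 CPM at R14. Endosperm replicate 2 was the highest at DO for 125 of 141 genes (35.7% of all genes), replicate 3 at R for 111 of 136 (29.4% of all genes) and at R7 for 105 of 130 (58.8% of all genes), and replicate 1 at R14 for 101 of 135 (44.5% of all genes). The mean SD of the late endosperm exceeded 1 for 32 of the 150 genes, 21.3%, against 0.69% of the 12030 genes that averaged 5 CPM or more there. Only 50 of the 150 had such a mean, and 21 of those (42%) exceeded 1. The count was 20 without replicate 3 of each group, 52 with log2(CPM + 0.25) and 10 with log2(CPM + 5). The share of all genes was not computed under these settings.

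The high endosperm library had the same replicate number as the high embryo library at DO, R7 and R14. The same-numbered library was the highest in both tissues for 116 of 139 genes at DO (83.5%, against 52.8% of all genes), for 99 of 122 at R7 (81.1%, against 49.5%) and for 99 of 135 at R14 (73.3%, against 47.9%). At R it was for 48 of 136 genes (35.3%, against 44.9%), since replicate 2 was most often the highest in the embryo and replicate 3 in the endosperm. Before DO the share was 41.3% at 35 DAF (56.4% of all genes), 64.7% at 42 DAF (53.4%), 55.9% at 49 DAF (44.3%), 58.4% at MG (42.3%), 29.8% at B (37.5%), 29.1% at PO (27.3%) and 46.8% at O (40.3%). It was thus above that of all genes at 42 and 49 DAF, MG, PO and O too, by fewer percentage points than at DO, R7 and R14. The numbers are those of the sample titles, and at PO the columns of the count table number the embryo and endosperm libraries differently. Whether same-numbered libraries of both tissues were taken from the same seeds was not given in the sources used here.

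**Figure D3:**
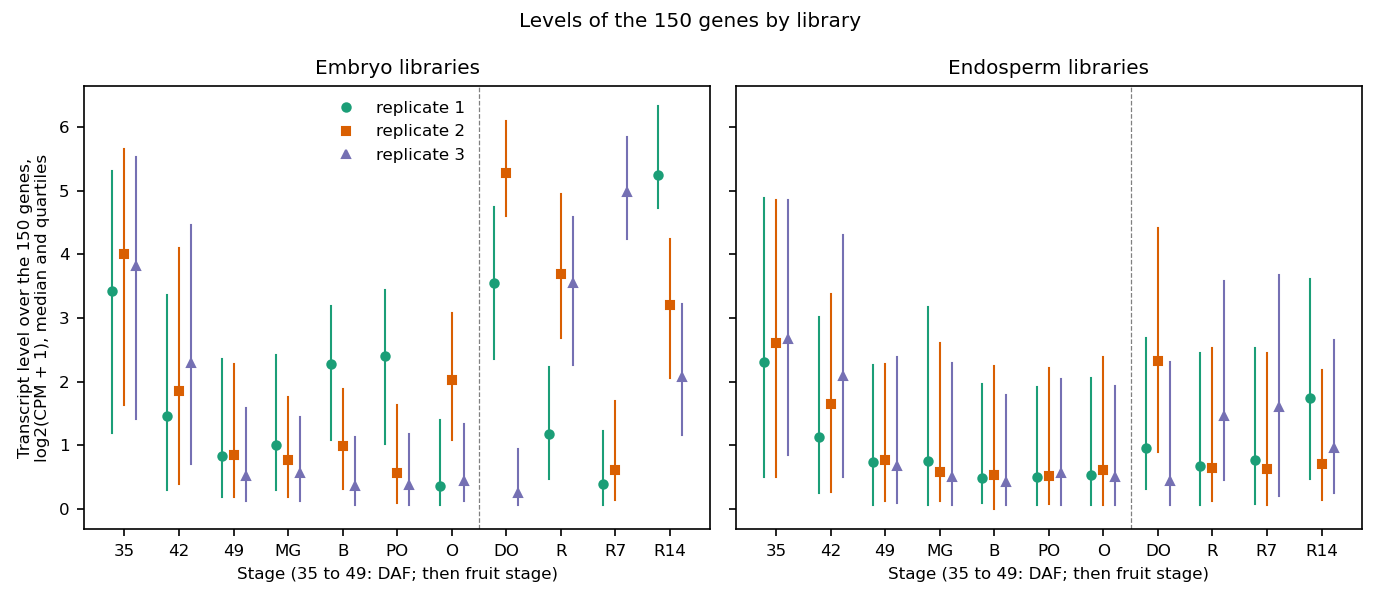
Levels of the 150 genes, as log2(CPM + 1), in each embryo and endosperm library from 35 DAF to R14, with the median as a point (symbols give the replicate number) and the quartiles as a line. At DO, R7 and R14 the highest embryo library (medians 5.28, 4.97 and 5.24) has the same replicate number as the highest endosperm library (medians 2.33, 1.60 and 1.75).

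Solyc07g026650.3.1 had the largest mean SD of the 150 genes in the late endosperm, 3.24. It had 1.41, 107 and 0.242 CPM in the endosperm at DO, 0.198, 3.27 and 20.9 CPM at R, 1.14, 0.577 and 145 CPM at R7 and 95.9, 0.0965 and 0.141 CPM at R14, and 0.143, 0.193 and 0 CPM at O. Solyc03g121900.1.1 had 35.7, 0.193 and 0.281 CPM in the endosperm at R14 and 0.142, 0.240 and 6.50 CPM at R7. Each of these values over 1 CPM at R7 and R14, other than the 1.14 CPM, was in the library that was also high in the embryo. The endosperm at R14 was compared with that at O, both outside the rule, by the same edgeR test. Of the 145 genes, 12 (8.28%) were higher at R14 and 0 lower, against 1.58% and 0.611% of all genes, 43 (29.7%) had an unadjusted p under 0.05 in either direction, against 21% of all genes. DESeq2 gave 31 of 140 genes higher (22.1%) and 0 lower, against 2.29% and 0.816% of all genes. The count in edgeR was 5 without replicate 1 of each group (1.31% of all genes), 2 without replicate 2 (0.239%) and 3 without replicate 3 (0.479%). Solyc10g075050.2.1 was higher at R14 in each library, with 5.83, 4.15 and 10.6 CPM, against 0.955, 0.193 and 0.144 CPM at O (log2 fold change 3.99, SE 1.23, edgeR, BH-adjusted p = 0.0325, range over the alternatives 0.000830 to 0.222), as was Solyc08g083240.3.1, with 1.10, 1.40 and 4.03 CPM at R14, against 2 counts in each library at O. Solyc12g040790.2.1, with 6.58, 0.0483 and 0.0938 CPM at R14 and 0 counts at O, and Solyc07g026650.3.1 were called through R14 replicate 1 alone.

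At O, embryo and endosperm were compared directly. Of the 145 genes, 44 (30.3%) were higher in the embryo and 26 (17.9%) lower, against 12% and 18.3% of all genes. Without O embryo replicate 2, an alternative chosen after seeing the data, 12 were higher and 37 lower, against 10.9% and 18% of all genes. Most of the higher calls thus rested on this library. Solyc10g075050.2.1 did not depend on it, with 89.6, 180 and 55.2 CPM in the embryo, against 0.955, 0.193 and 0.144 CPM in the endosperm, a log2 fold change of 7.91 (SE 1.23, edgeR, BH-adjusted p = 2.98e-07). Solyc12g006680.2.1 had 32.3, 98.8 and 32.1 CPM in the embryo and 1.19, 2.65 and 0.337 CPM in the endosperm, and Solyc08g083240.3.1 had 5.77, 11.9 and 4.80 CPM in the embryo, against 2 counts in each endosperm library. In contrast, Solyc12g040860.2.1 had 0, 8.20 and 0 CPM in the embryo and 0 counts in the endosperm, a call from a single library. Solyc04g150104.1.1 had 0 counts in the embryo, at least 17.5-fold lower than in the endosperm with 2.15, 3.90 and 1.54 CPM. The change from MG to O differed between the tissues for 2 of the 145 genes (1.38%, against 1.47% of all genes called in either direction), Solyc01g104950.4.1 and Solyc11g008870.2.1, and without O embryo replicate 2 for 0.

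At 49 DAF, the last age at which seed coats were sampled, 68 of the 145 genes (46.9%) were lower in the embryo than in the seed coat and 25 (17.2%) higher, against 30.6% and 23.2% of all genes. With library totals the median of all genes moved to -0.94 from -0.08, and 74 were lower and 18 higher, against 44.2% and 12% of all genes. Solyc09g008280.2.1 had 1.15, 0.298 and 0.386 CPM in the embryo, against 1147, 2068 and 1862 CPM in the seed coat, a log2 fold change of -10.59 (SE 0.81, edgeR, BH-adjusted p = 5.11e-17). Solyc01g104950.4.1 had 1.00, 0.689 and 0.687 CPM in the embryo and 1084, 1417 and 1306 CPM in the seed coat. Other genes of the group were transcripts of the embryo at this age, such as Solyc12g011010.2.1, with 54.5, 16.0 and 7.74 CPM, against 0.802, 0.233 and 0.327 CPM in the seed coat, and Solyc08g083240.3.1, with 22.8, 22.5 and 17.1 CPM, against 1.32, 0.838 and 0.467 CPM. The 150 genes therefore include transcripts that were abundant in the seed coat and scarce in the embryo at 49 DAF beside others with the opposite difference.

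Several other measures moved with the 150 genes, wholly or in part, over the 12 late embryo libraries, and their part in the pattern was not tested. The number of genes with at least 1 CPM was 16563, 16809 and 15093 at DO, 15453, 16210 and 16250 at R, 15176, 15405 and 17142 at R7 and 17147, 16415 and 15916 at R14, highest or near the highest where the 150 genes were high. Of the 1645 seed coat preferential genes outside the 150, 157 (DO replicate 3) to 437 (R14 replicate 1) reached 1 CPM, and their sum was 1077 to 4203 CPM in the late embryo libraries, against 229378 to 521755 CPM in the seed coat libraries. Of this list, 275 genes had 0 counts in all 12 late embryo libraries. Its 10 most abundant genes summed to 143, 101 and 33.8 CPM at DO and 106, 89.3 and 179 CPM at R. At R7 they summed to 20.3, 57.7 and 211 CPM, and at R14 to 297, 118 and 84.6 CPM. This sum was thus highest in the library with the highest sum of the 150 genes at R7 and R14, but not at DO and R. The 1244 endosperm preferential genes outside the 150 summed to 1064 to 1913 CPM, against 62241 to 202170 CPM in the endosperm libraries, with 1891, 1436 and 1275 CPM at DO, 1502, 1203 and 1913 CPM at R, 1064, 1165 and 1504 CPM at R7 and 1181, 1591 and 1112 CPM at R14. Their sum was lowest in the library with the lowest sum of the 150 genes at DO, R7 and R14, but highest in that with the highest sum at R7 only. The number of them at 1 CPM or more did so in part, with 122, 127 and 89 at DO, 110, 103 and 127 at R, 102, 106 and 147 at R7 and 137, 117 and 98 at R14. The 10 most abundant genes of the endosperm list went the other way. At each stage their sum was lowest in the library with the highest sum of the 150 genes. It was 972, 624 and 663 CPM at DO and 695, 501 and 1041 CPM at R. At R7 it was 407, 451 and 363 CPM, and at R14 212, 609 and 375 CPM. Of the 375 embryo preferential genes outside the 150, 280, 274 and 287 reached 1 CPM in DO replicate 2, R7 replicate 3 and R14 replicate 1, and 164 in DO replicate 3. Their sum followed the 150 genes in part, with 10554, 11654 and 9378 CPM at DO and 9553, 10546 and 11023 CPM at R. It was 7924, 8198 and 10128 CPM at R7. At R14 it was 9489, 9918 and 9942 CPM, lowest in the library with the highest sum of the 150 genes.

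The maturation transcripts moved the other way in most stages. A list of 27 LEA genes summed to 47820, 48077 and 59041 CPM at DO, 54369, 41735 and 43328 CPM at R, 44169, 38406 and 33897 CPM at R7 and 28227, 47826 and 43311 CPM at R14. The lowest sum of R, R7 and R14 was in the library with the highest sum of the 150 genes, and at DO the highest was in the library in which the 150 genes were lowest. A list of 25 heat shock genes had 9488, 8179 and 13086 CPM at DO, 9713, 10837 and 6470 CPM at R7 and 3675, 9669 and 9512 CPM at R14, and a list of 10 oil body genes 7118, 5530 and 8673 CPM at DO and 3167, 6141 and 5929 CPM at R14. In the endosperm, the LEA sum was also lowest in R7 replicate 3 (29126 CPM, against 40990 and 38501 CPM in the other replicates) and in R14 replicate 1 (31552 CPM, against 38700 and 39897 CPM). At DO and R it was instead highest in the endosperm library with the highest sum of the 150 genes, with 41218, 42871 and 41133 CPM at DO and 40126, 42006 and 44904 CPM at R. The total count followed the sum of the 150 genes in part. At DO and R it was lowest in the library with the lowest sum (20662340 and 20415576), but not highest in that with the highest. At R7 and R14 it was highest in the library with the highest sum (20968714 and 21302093), but not lowest in that with the lowest. Its part was not tested. The 10 most abundant genes took 9.43% to 11.4% of the counts of each late embryo library.

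**Figure D4:**
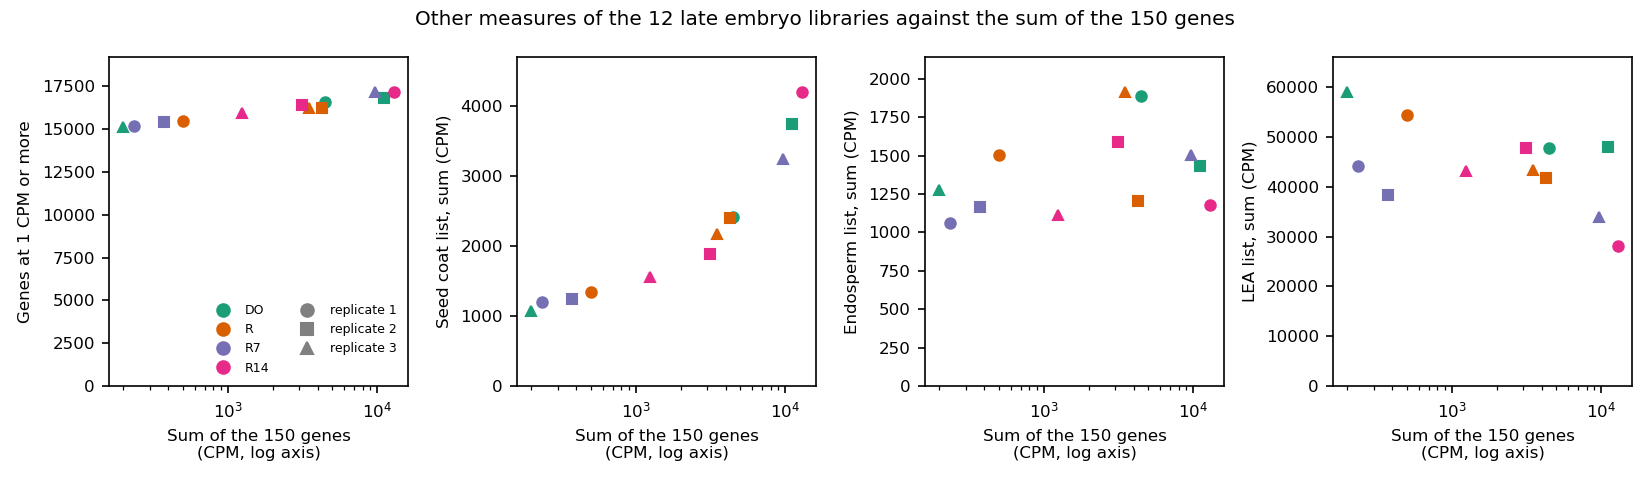
Summed CPM of the 150 genes in each of the 12 late embryo libraries (horizontal log axis) against the number of genes with at least 1 CPM and the summed CPM of the seed coat, endosperm and LEA lists (vertical axes), with 1 point per library, coloured by stage and shaped by replicate number. R14 replicate 1 has the highest sum of the 150 genes (13038 CPM), the highest seed coat sum (4203 CPM) and the lowest LEA sum (28227 CPM), whereas the endosperm sum is 1181 CPM in that library and highest in R replicate 3 (1913 CPM).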

How the data were processed

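The authors quantified single-end reads (BGISEQ-500) with Salmon against the ITAG 4.0 transcripts of genome SL4.0 and deposited estimated counts of 33976 genes without normalization. Of these values 10.5% are not whole numbers, and they were rounded for the tests. CPM used library totals (Python 3.11.15, numpy 2.4.6, pandas 2.3.3, matplotlib 3.10.9), with a pseudocount of 1 before log2. The tests fitted the 72 libraries outside the rule, with 1 coefficient per group, by the quasi-likelihood test of edgeR 4.0.16 under R 4.3.3 (genes kept by filterByExpr, scaled by TMM, p adjusted after Benjamini-Hochberg), after a check on simulated data. DESeq2 1.42.0 was an alternative. The 3 libraries of a group are described as biological replicates from pooled seeds, and p-values measure the spread between them. Limits and floors cover counting error only.

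Replicate numbers came from the titles, and some columns of the count table carry other numbers, which differ between embryo and endosperm at PO. Deviations from the group means correlated in each same-numbered pair for embryo and endosperm at O (0.150, 0.175 and 0.128) and for embryo and seed coat at 49 DAF (0.174, 0.110 and 0.153), which was taken as possible pairing. They also did so for embryo and endosperm at R7 (0.274, 0.258 and 0.403) and R14 (0.341, 0.246 and 0.0867). At DO the correlations were -0.121, 0.506 and 0.488, and at R 0.29, -0.0445 and 0.449. The tissues were not tested against each other at these late stages. Between embryo stages single values were as high as those at O and 49 DAF, but not in each pair. They were 0.152, -0.00842 and 0.168 for 42 and 35 DAF, and -0.119, 0.0195 and 0.207 for O and MG. The correlations thus do not show that same-numbered libraries came from the same seeds. A replicate block, a term for the replicate number shared by all groups, changed no count at O or 49 DAF between tissues by more than 1.5 times. It does not model pairs of tissues within a stage. The tests between tissues at O and at 49 DAF thus leave any such pairing out.

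The 150 genes and the gene lists were chosen with earlier results of these data known. Named genes are the 20 with the highest mean SD, the 5 with the highest mean CPM, genes named by the study, those at the boundary of the rule, and the largest rise and fall of each comparison. Other genes were named after their values were seen. Gene sequences and genome coordinates were not used here.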

Additional observations from a re-analysis of the deposited data

Results flagged for a closer look

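The change from MG to O was tested for a difference between embryo and endosperm (edgeR's quasi-likelihood test of the interaction, p adjusted after Benjamini-Hochberg, BH, over all genes), and 2 of the 145 genes passed. These are 1.38% of them, against 1.47% of all genes tested. An unadjusted p under 0.05 was reached by 16 (11%), against 15.1% of all genes, so the share of the 145 was not above that of all genes. Solyc01g104950.4.1, which was most abundant in the seed coat at 49 DAF, had an interaction of 7.94 on the log2 scale (SE 2.21, edgeR, BH-adjusted p = 0.0323, range over the alternatives 0.000844 to 1.00). It had 0, 3.69 and 0.0480 CPM at O, against 0.0459, 0.233 and 0.0955 CPM at MG in the embryo, and 0.143, 0.0482 and 0.289 CPM at O, against 9.49, 2.91 and 0.419 CPM at MG in the endosperm. The embryo part rests on O replicate 2, and without that library the interaction was 2.61 and was no longer called. Solyc11g008870.2.1 had an interaction of 3.47 (SE 1.02, edgeR, BH-adjusted p = 0.0482), with 0.381, 2.28 and 0.336 CPM at O, against 0.826, 0.606 and 0.143 CPM at MG in the embryo. In the endosperm it had 1.72, 2.07 and 2.55 CPM at O, against 22.6, 11.2 and 3.91 CPM at MG. Without O embryo replicate 2 neither gene was called.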

How the results depend on the processing

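Depth limits the values under about 0.15 CPM, and 78 of the 150 genes reached that limit in a late embryo library. Of 80 comparisons of named genes, 42 kept their direction and their side of the threshold in each alternative run. Counts within 1.5 times the value of the report are not repeated here.

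The share of all genes is given in parentheses. The fit of all 84 libraries tested all 150 genes. It includes the libraries whose spread chose the genes, so its counts are a description only. With all 84 libraries in the fit, the falls from 35 to 42 DAF numbered 26 (12%), the rises from 42 to 49 DAF 0 (7.34%), the rises and falls from 49 DAF to MG 0 (3.27%) and 6 (3.68%) and from MG to O 1 (1.94%) and 3 (4.45%), the genes higher in the embryo than the endosperm at O 29 (11.3%), those higher in the endosperm at R14 than at O 2 (0.977%), and the differences between tissues in the change from MG to O 0 (1.15%). With only the groups compared, fewer of the 150 genes were tested. There were 5 rises among 131 from 35 to 42 DAF (9.4%) and 2 among 101 from 42 to 49 DAF (8.98%). From MG to O, 6 of 95 rose (3.34%) and 0 fell (5.04%). At O, 21 of 88 were higher in the embryo than the endosperm, which is 23.9% of them, against 13.5% of all genes. In the endosperm at R14, 2 of 86 were lower than at O (0.955%), and 0 of 113 differed between tissues (2.34%). DESeq2 with its size factors gave 4 rises among 142 genes from 49 DAF to MG (3.87%) and 9 falls among 142 from MG to O (5.64%). It gave 31 of 140 genes higher in the endosperm at R14 (2.29%) and 6 differences between tissues among 136 (2.94%). Library totals gave 2 rises from 42 to 49 DAF (11.7%), 9 rises from 49 DAF to MG (14.5%), 3 falls from MG to O (3.35%) and 1 difference between tissues (1.21%). There was 1 difference between tissues among 149 genes with no low-count filter (1%), and 1 with the replicate block (1.5%), which left the other counts within 1.5 times. In edgeR without O embryo replicate 2, chosen after seeing the data, 2 genes rose (1.98%) and 13 fell (4.35%) from MG to O, 12 were higher in the embryo than the endosperm at O (10.9%) and 0 differed between tissues (1.15%). The cause of these moves was not tested.

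Leaving out 1 replicate number of each group gave 2 to 3 rises (6.2% to 7.85%) and 30 to 57 falls (8.24% to 12.7%) from 35 to 42 DAF, 0 to 3 rises (5.15% to 10.4%) and 51 to 76 falls (8.18% to 17.3%) from 42 to 49 DAF, 0 to 1 rises (1.68% to 3.78%) and 6 to 19 falls (2.33% to 4.26%) from 49 DAF to MG, and 1 to 22 rises (1.67% to 2.52%) and 0 to 14 falls (3.01% to 4.44%) from MG to O. It gave 9 to 47 genes higher (9.38% to 11.8%) and 21 to 31 lower (16.2% to 17.1%) in the embryo than the endosperm at O, 2 to 5 genes higher in the endosperm at R14 (0.239% to 1.31%), and 0 to 2 differences between tissues (0% to 1.44%). The genes with a mean SD over 1 numbered 7 to 46 in the embryo from MG to O and 20 to 29 in the late endosperm. With log2(CPM + 0.25) these were 76 and 52, and with log2(CPM + 5) 10 and 10. The share of all genes was not computed for these counts of the SD. The rule returned 50 of the 150 genes with a minimum of 20 CPM and 79 without DO replicate 2, R7 replicate 3 and R14 replicate 1, and between 114 and 143 under the other settings of scale, pseudocount and minimum.

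Signs turned in 5 comparisons. From MG to O, leaving out 1 replicate number gave log2 fold changes of -6.91 to 0.85 for Solyc06g050870.3.1 and -11.23 to 0.64 for Solyc10g050990.2.1, with the positive values without replicate 1. For embryo over endosperm at O it gave -0.0065 to 2.59 for Solyc01g096450.4.1 and -0.0037 to 6.93 for Solyc05g050130.4.1, with the negative values without replicate 2, and 3.17 to 6.08 for Solyc07g042995.1.1. Without O embryo replicate 2, these 3 genes had -0.76, -0.38 and -0.68.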
